A study of Saccharomyces cerevisiae with 14 samples.

Results

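RNA captured from yeast after 5 min with 4-thiouracil (4tU) was compared with RNA that the same beads held when no label had been given. The 3 labelled libraries, from timecourses 1, 2 and 3, were set against 2 unlabelled libraries, together 5 of the 14 samples of the series. All were chosen by their labels. The cells were Saccharomyces cerevisiae of strain W303U, labelled MATa, with the alleles ade2-1 and his3-11, 15 in its genotype, besides trp 1-1, can1-100 and leu2-3, 112. They grew at 30 °C in minimal medium without uracil and leucine to an OD600 of 0.8. The labelled cultures received 500 µM 4tU for 5 min. The unlabelled samples are titled as background of timecourses 1 and 3, and their labels repeat the capture protocol. One of these 2 has source and molecule labels that read as rRNA-depleted total RNA, and its title set its group. The columns of the count table name no timecourse for the unlabelled libraries, so they are called unlabelled 1 and 2 and were paired with nothing. The labels do not say that the timecourses came from separate cultures, so the spread behind the p-values may be technical. In the fit of single features that spread was pooled within the 5 groups of all 14 libraries, not taken from these samples alone. Timecourse was not in the model.

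4tU is a uracil analogue. The permease Fur4 can bring it into the cell, and Fur1, uracil phosphoribosyltransferase, begins its conversion to the nucleotide that RNA polymerases use. RNA made during the pulse carries thiol groups, which are biotinylated and bound to streptavidin beads, while older RNA lacks them. RNA that sticks to the beads without a thiol forms the background, and the unlabelled libraries sample that background. Both kinds of library were amplified to sequencing depth, so the amount of RNA captured is not in the counts. Counts are given below as they stand, as shares of a library, or scaled to the bulk of features.

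The 5 min libraries held 7206103, 20528678 and 20371687 counts, and the unlabelled libraries 37181457 and 13627513. On log2 CPM (read counts scaled to a common library total with TMM factors), correlations across features were 0.84 to 0.92 among the 5 min libraries and 0.79 between the unlabelled libraries. Unlabelled 1 correlated at 0.89, 0.94 and 0.73 with total RNA replicates 1, 2 and 3, and unlabelled 2 at 0.68, 0.80 and 0.74. With 5 min libraries 1, 2 and 3, unlabelled 1 correlated at 0.82, 0.88 and 0.85, and unlabelled 2 at 0.65, 0.75 and 0.78. Each 5 min library correlated more closely with the 2.5 min library of its timecourse (0.98, 0.98 and 0.94) than with the other 5 min libraries. The fit treated libraries of the same timecourse as independent. The unlabelled libraries also differed from each other in single RNAs: the mitochondrial 15S rRNA stood at 119 CPM in unlabelled 1 and 1759 CPM in unlabelled 2.

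rRNA took a smaller share of the captured RNA after 5 min of label than without it. Its share of all counts was 9.36%, 5.89% and 20.4% in the 5 min libraries, against 51.2% and 55.4% in the unlabelled libraries. The 3 labelled values lay below both unlabelled ones, with means of 11.9% ± 7.58 (SD, n = 3) and 53.3% ± 2.92 (SD, n = 2). In the exact two-sided permutation test the difference had p = 0.2, the smallest that 3 against 2 libraries allow, so no share can pass 0.05 in this design. The rRNA rows RDN25-2 and RDN37-2 hold identical counts, so the same reads may stand in both. In rRNA-depleted total RNA, for orientation, rRNA ran from 2.65% to 28.7%.

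Protein-coding features took a larger share. They held 54.1%, 55.4% and 46.3% of all counts at 5 min and 23.2% and 22.6% in the unlabelled libraries. Among counts outside rRNA the gap was narrower, with 59.7%, 58.9% and 58.1% at 5 min against 47.6% and 50.5% without label, and the groups still did not overlap. CUTs (cryptic unstable transcripts, which the nuclear exosome removes quickly) took 3.66% to 4.11% of all counts at 5 min and 1.55% and 1.68% without label. Together with SUTs (stable unannotated transcripts) and XUTs (transcripts that build up without the exonuclease Xrn1), they took 10.9%, 10.9% and 10.3% at 5 min and 3.30% and 5.16% without label. The exact p of each of these 3 differences was 0.2. Outside rRNA the combined share was 12%, 11.6% and 12.9% at 5 min against 6.76% and 11.6%, so unlabelled 2 came up to the lowest labelled library.

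snoRNAs, the small nucleolar RNAs that guide modification and cleavage of rRNA, differed in direction with the denominator. Of all counts they took 12.5%, 13.1% and 11.8% at 5 min and 11.6% and 7.56% without label. Of the counts outside rRNA they took 13.8%, 13.9% and 14.9% at 5 min and 23.9% and 16.9% without label. tRNA shares ran from 0.53% to 2.86% at 5 min and were 0.91% and 4.21% without label, so the groups overlapped.

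**Figure D1:**
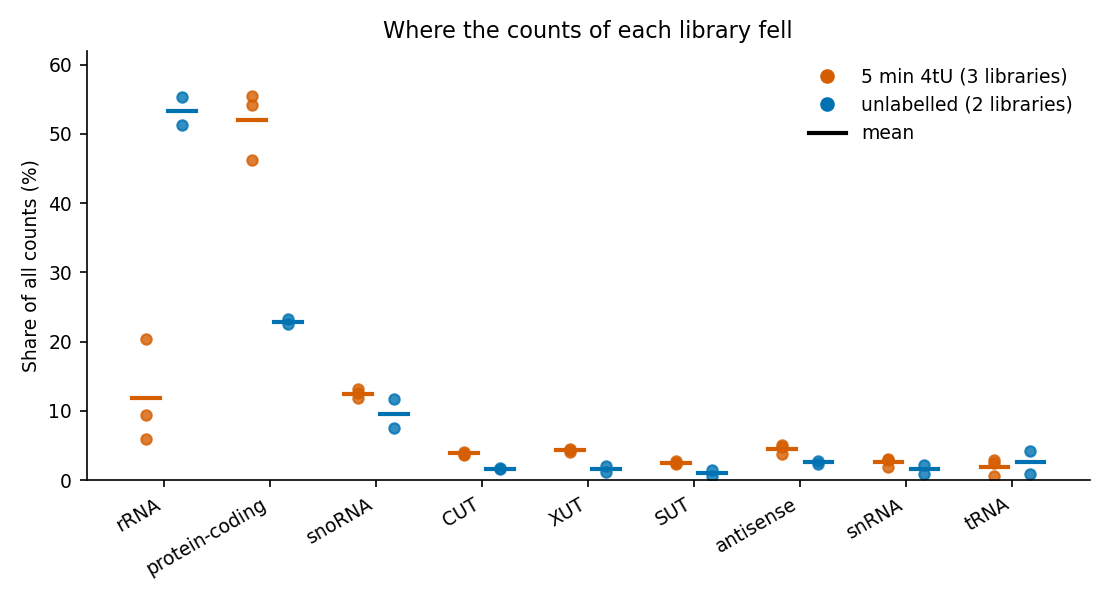
Share of all counts (percent, y axis) that fell on each feature class (x axis) in the 3 libraries labelled for 5 min (orange, left) and the 2 unlabelled libraries (blue, right), with each point a library and each bar a mean. The labelled libraries lie between 5.89% and 20.4% for rRNA, below 51.2% and 55.4% without label, and above the unlabelled libraries for protein-coding features.

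Of 11688 features tested with edgeR's quasi-likelihood test over all 14 libraries, 7 rose and 33 fell at 5 min relative to the unlabelled libraries (adjusted p under 0.05). These are 0.0599% and 0.282% of the features. At an unadjusted p under 0.05, 921 were higher and 1475 lower. The 40 calls had adjusted p-values of 0.0108 to 0.0495, and in every one of them the 3 labelled values lay outside the 2 unlabelled ones. Such a gap between the groups was common: 22.7% of all features were higher and 16.6% lower in all 3 labelled libraries than in both unlabelled ones. In a fit without the total RNA libraries, which correlated at 0.64 to 0.86 among themselves, 869 features rose (7.48%) and 974 fell (8.39%), among them all 40. Without 5 min library 2 the full fit called none, and without 5 min library 1 or 3 it called 1.

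Unannotated transcripts led the features that rose. CUT285 had 25.9, 28.5 and 19.6 CPM at 5 min, against 1.21 and 0.946 CPM without label, and its log2 fold change was 4.5 ± 0.53 (SE; adjusted p = 0.0108). CUT567 was the most abundant of them, at 139, 65.2 and 77.4 CPM after label and 9.21 and 8.83 CPM without it (log2 fold change 3.38 ± 0.56, adjusted p = 0.0396). The lowest labelled library of CUT567 stood far above both unlabelled ones. CUT460 (log2 fold change 2.33) and CUT311 (3.57) rose as well. XUT_13F-370 (3.70) had 94.9% to 102% of the counts of CUT311 in the labelled libraries, so these 2 names may describe the same reads. The files give no strand setting, and the values of unannotated transcripts that overlap genes are uncertain.

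FIN1, a filament protein that binds the mitotic spindle, was the protein-coding gene that rose. It had 15.7, 18.0 and 14.5 CPM at 5 min, against 2.96 and 1.42 CPM without label (log2 fold change 2.86 ± 0.55, adjusted p = 0.0476). It lies at 715747 to 716622 on chromosome IV of build R64. The tRNA gene tW(CCA)M, the remaining feature that rose, falls under the abundance bound for named features and is given because the list of 7 is short. It had 33, 255 and 70 counts at 5 min and 0 in both unlabelled libraries, which makes it at least 22.3-fold higher against a floor of 3 counts over the unlabelled group.

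Among the 33 features that fell, YAT2, a carnitine acetyltransferase, had 69.3, 64.8 and 58.3 CPM at 5 min against 390.0 and 446 CPM without label (log2 fold change −2.70 ± 0.35, adjusted p = 0.0155). TMA19, an abundant protein that associates with ribosomes, stood at 158, 151 and 130 CPM with label and at 1575 and 546 CPM without it (−2.86 ± 0.51, adjusted p = 0.0444). The antisense unit Unit229 had 88.3% to 97.2% of the counts of TMA19 in each of the 5 libraries and fell as far. With unlabelled 1 left out, the change of TMA19 was −1.89. FLO10, a cell surface flocculin, had 5.86, 5.11 and 7.45 CPM at 5 min against 21.2 and 110 CPM without label (−3.41 ± 0.56, adjusted p = 0.0396). Its fall was −1.78 with unlabelled 2 left out. GID7, of the GID ubiquitin ligase, likewise gave −2.66 with both unlabelled libraries and −1.19 without unlabelled 2, in which it stood at 164 CPM against 35.9 CPM in unlabelled 1. The peroxisomal enzyme gene PCS60 fell by 2.92 on the log2 scale, and the change was −1.95 without unlabelled 2.

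The other features that fell are given by the role of their product. LYS4 and LYS9 of lysine synthesis and the branched-chain aminotransferase genes BAT1 and BAT2 fell by 1.78, 1.68, 2.21 and 1.60 on the log2 scale. ADE57 and GUA1 of purine synthesis fell by 2.36 and 2.25, and ERG10, the thiolase at the start of sterol synthesis, fell by 2.23. TOM40, the channel of the mitochondrial outer membrane, had 76.2, 78.8 and 66.6 CPM at 5 min against 557 and 286 CPM without label. SCW10, a cell wall protein, and RLI1, which splits ribosomes after termination, fell by 2.49 and 2.52. The small open reading frame YMR304C-A also fell, with 4.57% to 10.5% of the counts of SCW10. With unlabelled 1 left out, the changes were −1.24 for SCW10, −1.49 for ADE57 and −1.32 for ERG10, and without unlabelled 2 that of RLI1 was −1.62. KTR1 and PMT4, which add mannose to secreted proteins, and EMC1, of a complex that inserts membrane proteins in the endoplasmic reticulum, fell by 2.14, 2.01 and 1.88. The remaining genes that fell were ASP1, an asparaginase gene (−2.09, and −1.27 without unlabelled 1), QNS1 of NAD synthesis (−2.42), DPH2 of diphthamide synthesis (−2.01), the biotin ligase gene BPL1 (−1.97) and AIM45 (−1.99). XUT_10F-209 and XUT_7R-93 gave −3.22 and −2.02, and −1.75 and −1.32 without unlabelled 2. HMF1 fell by 2.51, and SUT092, Unit98 and XUT_5F-129, which fell too, held 97.9% to 123.4% of its counts.

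**Figure D2:**
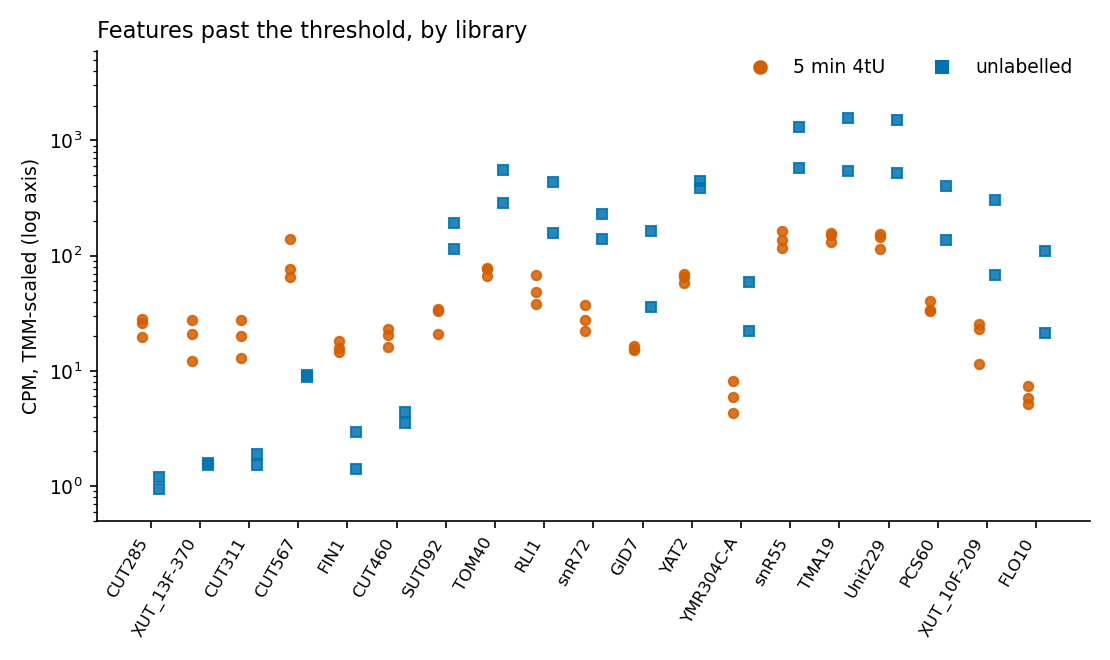
TMM-scaled CPM (log axis) of the features that passed the threshold and that the naming rule picked, ordered by log2 fold change, in each 5 min library (orange circles, left) and each unlabelled library (blue squares, right). The groups do not overlap for any of them, and CUT285 shows the widest gap, with 19.6 to 28.5 CPM at 5 min against 0.946 and 1.21 CPM without label.

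snoRNAs lay below the bulk of features after 5 min. Of 76 tested, 2 fell in the fit over all libraries and 30 in the fit without total RNA, where 8.39% of all features fell. None rose in either. In 63 of the 76 all labelled values were below both unlabelled ones, as they were in 16.6% of all features. Their median log2 fold change was −2.15, against −0.005 over all features, and it was −1.77 with unlabelled 1 left out and −2.56 with unlabelled 2 left out. Both that fell are box C/D snoRNAs, which guide methylation of rRNA and are held by proteins at short conserved boxes. snR55 lies at chrXII:794697-794794 on the minus strand and snR72 at chrXIII:298554-298651 on the plus strand of R64, and each spans 98 bases. Their RefSeq sequences are shown because label can enter only at U, with the first TGATGA (box C) and the last CTGA (box D) on the transcribed strand in capitals.
snR55: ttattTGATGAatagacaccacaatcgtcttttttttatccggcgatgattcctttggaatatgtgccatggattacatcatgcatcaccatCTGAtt
snR72: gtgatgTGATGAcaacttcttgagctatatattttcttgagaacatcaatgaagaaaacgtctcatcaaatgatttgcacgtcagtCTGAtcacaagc
T, the letter for U here, makes up 37 of the 98 bases of snR55 and 30 of those of snR72. Both boxes, in this order, occur in 42 of the 76 annotated snoRNAs (55.3%).

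snR55 had 116, 164 and 137 CPM at 5 min, against 1298 and 581 CPM without label (log2 fold change −2.75 ± 0.48, adjusted p = 0.0429). snR72, which belongs to a cluster of snoRNAs cut from a common precursor, had 22.4, 27.7 and 37.1 CPM at 5 min against 229 and 139 CPM (−2.66 ± 0.45, adjusted p = 0.0396). In both, the highest labelled library stayed below the lower unlabelled one. The U3 snoRNA, needed for the first cuts of pre-rRNA, is made from snR17a and snR17b. The snR17a RNA stood at 18916, 22132 and 12993 CPM at 5 min and at 106081 and 34362 CPM without label, and its difference of −1.96 did not pass the test (adjusted p = 0.175). snR17b gave −2.52 (adjusted p = 0.101) and snR30, an H/ACA snoRNA required for the small subunit, −2.06 (adjusted p = 0.140), again with no overlap. The changes were −0.93 for snR17a, −1.35 for snR17b and −0.54 for snR30 when unlabelled 1 was left out. The U3 genes hold introns, and the authors deposited segment values for them. At 5 min the snR17a intron had 1.549, its exon 2 75.183 and its spliced junction 52.188. Without label these were 0.327, 101.515 and 4.377. The snR17a intron was thus higher with label relative to exon 2, and lower relative to the spliced junction. For snR17b, intron and spliced junction had 0.158 and 145.464 at 5 min, and 0.014 and 44.123 without label. Its intron was higher with label relative to the junction.

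None of the 6 spliceosomal snRNAs passed the test over all libraries, and their median was −1.70. The U2 snRNA LSR1 had 13583, 11756 and 8222 CPM at 5 min and 61007 and 11569 CPM without label, so its groups overlapped through unlabelled 2. With unlabelled 1 left out the snRNA median was −0.40 and LSR1 gave −0.04. TLC1, the template RNA of telomerase, had 139, 100 and 66.7 CPM at 5 min against 875 and 170 CPM without label (−2.36, adjusted p = 0.0673, and 0.0327 in the fit without total RNA), with −0.74 when unlabelled 1 was left out. SCR1, which scaffolds the particle that recognises signal peptides, and the RNase P RNA RPR1 gave −2.17 and −0.91, with adjusted p-values of 0.237 and 0.428 and overlapping groups. SCR1 gave −0.33 and RPR1 turned to 0.37 when unlabelled 1 was left out. The median of mitochondrially encoded features other than rRNA was −2.27, and −4.46 with 5 min library 3 left out.

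The mRNAs of the translation apparatus and of central metabolism also lay low. Of 138 cytoplasmic ribosomal protein (RP) genes none passed the test over all libraries. In the fit without total RNA 56 fell and 1 rose, beside 8.39% and 7.48% of all features. Without overlap 83 were lower and 3 higher, beside 16.6% and 22.7% of all features. Their median was −1.18. RPP0, which holds the ribosomal stalk, had 675, 587 and 392 CPM at 5 min against 5469 and 1600 CPM without label (−2.68 ± 0.63, adjusted p = 0.0524, and 0.0173 without total RNA). RPS14A and RPP2A gave −2.53 and −2.18, with adjusted p-values of 0.0621 and 0.136. The 9 translation elongation factor genes had a median of −1.91, and 7 of them fell in the fit without total RNA, where 8.39% of all features fell. YEF3, the fungal elongation factor 3, had 912, 1139 and 626 CPM at 5 min against 6890 and 1455 CPM without label (−2.23, adjusted p = 0.0886). Without unlabelled 1 the changes were −1.53 for RPP0, −1.38 for RPS14A, −1.31 for RPP2A and −0.70 for YEF3.

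Of 19 glycolysis and fermentation genes, 11 fell in the fit without total RNA and none in the fit over all libraries, beside 8.39% and 0.282% of all features, and the median was −1.97. TDH3, the main glyceraldehyde-3-phosphate dehydrogenase gene, had 2184, 3136 and 1355 CPM at 5 min against 25790 and 5588 CPM without label (−2.82 ± 0.84, adjusted p = 0.0913, and 0.0249 without total RNA). ENO2, enolase, gave −2.85 (adjusted p = 0.102) and PDC1, pyruvate decarboxylase, −1.97 (adjusted p = 0.184). The labelled values of all 3 lay below both unlabelled ones, but PDC1 reached 2385 CPM at 5 min and 2508 CPM in unlabelled 2. TDH3 gave −1.32, ENO2 −1.24 and PDC1 −0.36 when unlabelled 1 was left out.

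Cell wall protein genes had a median of −2.0, and 17 of 28 fell in the fit without total RNA, against 1, SCW10, in the fit over all libraries. Of all features 8.39% and 0.282% fell in these fits. CCW12, a major mannoprotein of the wall, had 3180, 3942 and 1713 CPM at 5 min against 22195 and 7513 CPM without label (−2.33, adjusted p = 0.174). SED1, another wall protein, gave −2.69 (adjusted p = 0.0907). CCW12 gave −1.35 and SED1 −1.74 when unlabelled 1 was left out. The amino acid synthesis list does not hold all of LYS4, LYS9, BAT1 and BAT2. Of its 55 genes 3 fell and of 23 ergosterol synthesis genes 1, with medians of −1.25 and −0.99. In the fit without total RNA these counts were 23 and 8, and 1 amino acid gene rose, beside 7.48% of all features.

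How far these medians lay below 0 depended on the unlabelled library. With unlabelled 1 left out the medians were −0.53 for RP genes, −0.82 for elongation factors, −0.67 for glycolysis, −1.02 for the cell wall, −0.43 for amino acid and −0.13 for ergosterol synthesis. With unlabelled 2 left out they were −1.63, −2.51, −2.71, −2.52, −1.61 and −1.54 in the same order. ACT1, actin, followed them, with 903, 661 and 787 CPM at 5 min against 5335 and 2136 CPM without label (−2.25, adjusted p = 0.0685, and −1.44 without unlabelled 1).

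Some lists lay above the bulk. The median of 76 mitochondrial ribosomal protein genes, encoded in the nucleus, was 0.65, and it was 1.00 with unlabelled 1 left out and 0.62 with unlabelled 2 left out. None passed the test over all libraries, while 15 rose and 1 fell in the fit without total RNA, where 7.48% of all features rose. In 37 of 76 the labelled libraries were all higher, as they were in 22.7% of all features. MRPL51, the most abundant with MRPS18 and MRPS12, had 95.4, 95.0 and 47.7 CPM at 5 min and 52.0 and 31.2 CPM without label, so its groups overlapped. MRPS18 and MRPS12 gave −0.62 and −0.96 (adjusted p = 0.535 and 0.390), against the direction of the list's median. MRPS18 gave 0.34 without unlabelled 2, and MRPS12 0.12 without unlabelled 1.

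Core histone genes had a median of 0.69 over 10 members, with 3 rising in the fit without total RNA, where 7.48% of all features rose. With unlabelled 2 left out the median was 0.42. HTA2, a histone H2A gene, had 477, 521 and 534 CPM at 5 min against 200 and 93.0 CPM without label (1.80 ± 0.53, adjusted p = 0.0861, and 0.0263 without total RNA). HTA1 gave 1.15 (adjusted p = 0.202) and HHT2, a histone H3 gene, 0.24 (adjusted p = 0.828), and without unlabelled 2 these were 0.70 and −0.13. The medians of 20 heat shock chaperone genes and 12 RNA polymerase II subunit genes were 0.64 and 0.47. The fit without total RNA called 0 chaperone genes and 2 polymerase genes, both higher. With 5 min library 1 left out the chaperone median was 0.20, with unlabelled 1 left out 1.41 and with unlabelled 2 left out 0.26. HSC82, an Hsp90 chaperone, had 1037, 548 and 549 CPM at 5 min and 948 and 223 CPM without label, and its groups overlapped.

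Ribosome biogenesis, cell cycle, spliceosome and mRNA decay, oxidative phosphorylation, stress and pyrimidine genes had medians between −0.15 and 0.22, and none passed the test over all libraries. Most of these medians moved or changed sign with the unlabelled library. With unlabelled 1 left out they were 0.84 for stress, 0.36 for oxidative phosphorylation, 0.18 for pyrimidine, −0.04 for cell cycle, −0.28 for spliceosome and mRNA decay and 0.11 for ribosome biogenesis genes. With unlabelled 2 left out they were −0.08, −0.30, −0.40, 0.58, 0.84 and 0.32 in the same order. Among the genes on which labelling depends, FUR1 had 69.4, 78.9 and 53.8 CPM at 5 min and 74.8 and 15.0 CPM without label, and FUR4 98.4, 127 and 142 CPM against 147 and 61.5 CPM. Both overlapped, and their changes of 0.58 and 0.23 were −0.15 and −0.26 without unlabelled 2. URA2, the first enzyme of pyrimidine synthesis, had 699, 895 and 624 CPM at 5 min against 5189 and 1355 CPM without label (−2.15, adjusted p = 0.0899, and 0.0353 without total RNA), and its change was −0.87 without unlabelled 1. The 10 genes attenuated by early termination through Nrd1, URA2 among them, had a median of −0.90, and of −0.33 without unlabelled 1.

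**Figure D3:**
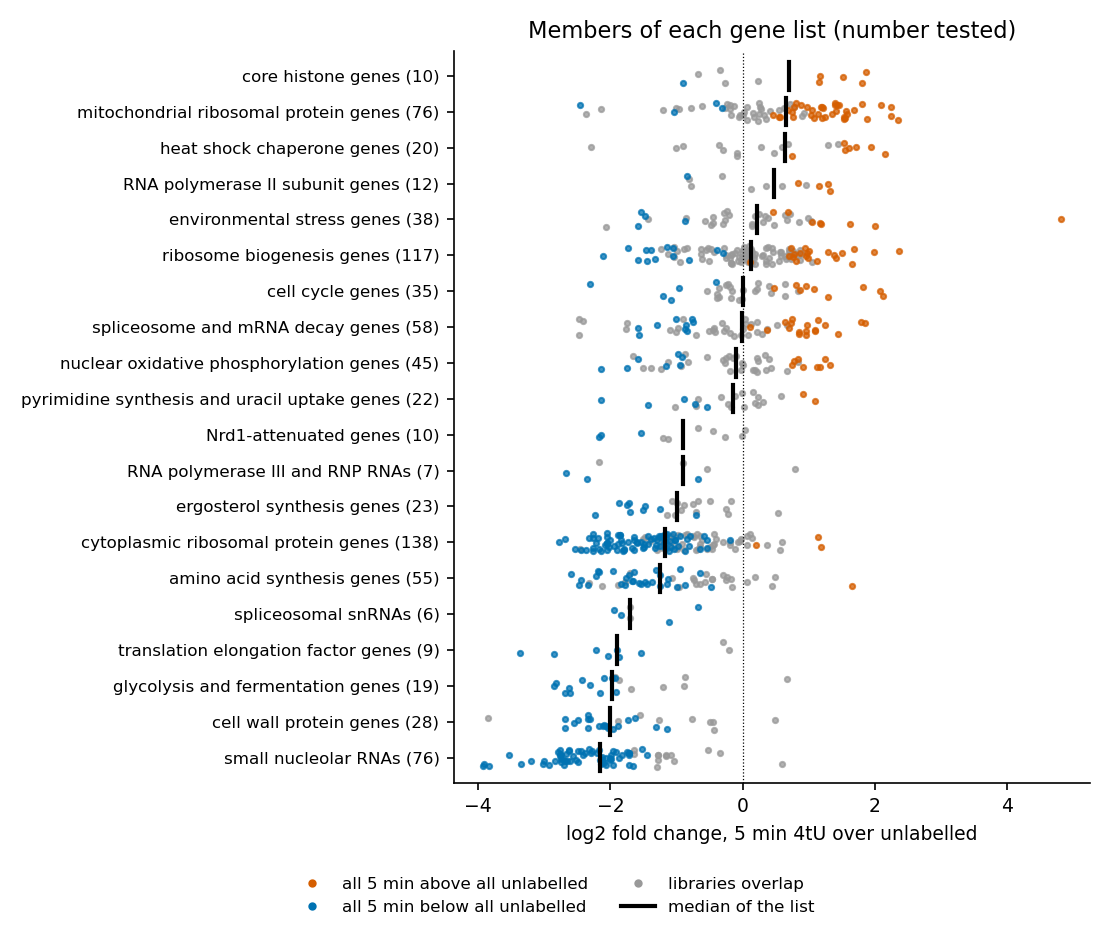
log2 fold change, 5 min over unlabelled (x axis), of every tested member of 20 gene lists (y axis, number tested in parentheses), with each point a gene or RNA, the black bar the median and the colours marking whether the labelled libraries lay above (orange) or below (blue) both unlabelled ones or overlapped them (grey). Medians run from 0.69 for core histone genes to −2.15 for snoRNAs.

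As a class, CUTs had a median above 0, unlike snoRNAs. Of 1923 tested, 633 were higher and 152 lower without overlap, which is 32.9% and 7.90%, beside 22.7% and 16.6% of all features. These 1923 are the part of 2420 CUTs that passed the count filter, some with 0 counts in both unlabelled libraries (next paragraph). Such CUTs with counts in all 3 labelled libraries are higher without overlap by construction. The share that was higher is thus partly set by the filter. In the fit without total RNA 218 rose and 60 fell, beside 7.48% and 8.39% of all features, and over all libraries 4 rose and none fell. Their median was 0.60, and it was 0.86 and 1.17 with unlabelled 1 and 2 left out. Medians of XUTs and SUTs were 0.15 and 0.09, or 0.41 and 0.48 with unlabelled 2 left out, and that of antisense units was −0.24, or 0.06 with unlabelled 1 left out.

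Counts of 0 in both unlabelled libraries with counts in all 3 labelled ones were found for 191 features, of which 173 were tested. Of those, 114 were CUTs, 27 protein-coding, 17 XUTs and 9 SUTs, beside 1923, 6457, 1652 and 828 tested features of these classes. The 173 stand beside 11688 tested features. They were picked by their counts of 0, which features of low count reach more easily, so the tally does not compare the classes. The tRNA gene tF(GAA)P1 stood highest above the floor, at least 161-fold (adjusted p = 0.09), with most counts from 1 library (23, 3026 and 51). CUT_CJR103WD1 had 4.45, 1.37 and 8.83 CPM at 5 min, at least 25.2-fold above the floor of 3 counts over the unlabelled group, and its adjusted p was 0.0513. A count of 0 in these 2 libraries allows up to 0.194 CPM over the group, so the RNAs may be present below that level.

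Intron values were higher relative to exons in labelled than in background RNA. The authors deposited 1 value per exon, intron and boundary for the 5 min and the unlabelled group, with no replicates, so these comparisons have no test, and only ratios within a gene are used because the scale is unclear. The ratio of the intron value to the mean of both exons had a median of 0.267 at 5 min and 0.0257 without label, over 239 genes. It was higher at 5 min in 187 genes, lower in 37 and equal in 15. The intron was listed at 0 in 17 genes at 5 min and in 87 genes without label. In total RNA the median ratio was 0.0307. Over the 117 genes with intron and both exons above 0 in both groups, the medians were 0.268 at 5 min and 0.0667 without label. Of these, 94 were higher and 23 lower at 5 min.

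RP genes, the most highly expressed genes with introns in yeast, had median ratios of 0.190 at 5 min and 0.0364 without label, with 76 of 85 higher and 9 lower. In the other 154 genes the medians were 0.322 and 0, with 111 higher and 28 lower. The unlabelled ratio was 0 in 81 of these 154 and in 6 of the 85 RP genes, so the median of 0 is a floor. Over genes above 0 in both groups, the median log2 difference of the ratio was 2.45 in 79 RP genes and 0.98 in 71 others. The unspliced form was also seen at the edges of the intron. The value across the boundary of exon 1 and intron was divided by that of the spliced junction. This ratio had a median of 0.450 at 5 min and 0.00552 without label, and was higher at 5 min in 144 of 170 genes. In 82 of the 170 it was 0 without label, so the unlabelled median lies near the floor. In the 88 genes above 0 in both groups, the median log2 difference of the ratio was 1.91. For the boundary of intron and exon 2 the medians were 0.454 and 0.188, with 115 higher and 52 lower.

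The introns of 3 genes are described, and their ends are printed because splicing acts on them. Capitals mark the first 6 bases of the intron, the branch site TACTAAC and the final AG, read from R64 on the transcribed strand. RPS14B and RPL30 encode proteins that bind their own transcripts and hold back splicing, and ACT1 is the classical splicing substrate of yeast.
RPS14B intron start, chrX:73797-73826, plus strand: GTACGTgaaaggggtgatatcctgtttaaa
RPS14B intron end, chrX:74125-74204, plus strand: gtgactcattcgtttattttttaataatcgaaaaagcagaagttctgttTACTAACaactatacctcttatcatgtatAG
RPL30 intron start, chrVII:439094-439123, plus strand: GTCAGTataacatgattttataactatttc
RPL30 intron end, chrVII:439244-439323, plus strand: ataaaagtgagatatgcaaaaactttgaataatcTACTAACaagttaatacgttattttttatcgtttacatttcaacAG
ACT1 intron start, chrVI:54657-54686, minus strand: GTATGTtctagcgcttgcaccatcccattt
ACT1 intron end, chrVI:54378-54457, minus strand: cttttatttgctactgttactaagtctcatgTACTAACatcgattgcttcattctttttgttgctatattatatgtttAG
The introns are 408, 230 and 309 bases long. Of 281 annotated nuclear introns, 73.0% begin with GTATGT, as that of ACT1 does and those of RPS14B and RPL30 do not, and 77.6% hold TACTAAC within the last 80 bases.

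The RPS14B intron had a value of 0.831 at 5 min, beside 0.160 for its exon 2, and 0.116 without label, beside 0.125. Its ratio to the mean exon was 8.98 at 5 min and 1.86 without label. Exon 1 of RPS14B had only 0.025 at 5 min and 0 without label, so its ratios to exon 2 alone would be lower. At the gene level RPS14B lay on the other side of 0 from the RP median, with 963, 514 and 805 CPM at 5 min against 424 and 248 CPM without label, without overlap (log2 fold change 1.18 ± 0.49, adjusted p = 0.199). At 5 min the ACT1 intron had 0.150, beside 6.493 for exon 1 and 0.379 for exon 2. Without label these values were 0.008, 5.578 and 0.733. Its ratio to the mean exon was 0.0437 at 5 min and 0.00254 without label. RPL30 had ratios of 0.0647 and 0.0104, and at 5 min its intron had 0.096, exon 1 2.763 and exon 2 0.204. In ACT1 and RPL30 exon 1 sets most of the mean exon, so ratios to exon 2 alone would be higher. The CPM of RPL30, 197, 277 and 305 at 5 min, lay below 852 and 469 without label (−1.35, adjusted p = 0.127, and −0.85 without unlabelled 1).

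Not all introns followed. RPL14A had intron to exon ratios of 0.732 at 5 min and 1.30 without label, although its value across exon 1 and intron, relative to the spliced junction, was 0.564 at 5 min and 0.0411 without label. RPL14A was picked out after its values were seen. Among the 230 genes with 1 annotated intron, 184 were higher at 5 min, 35 lower and 11 equal. Those whose intron begins with GTATGT were higher in 139 of 168 (24 lower, 5 equal) and the others in 45 of 62 (11 lower, 6 equal). Introns longer than the median of 140 bases were higher in 101 of 115 (14 lower, 0 equal). Those up to the median length were higher in 83 of 115 (21 lower, 11 equal), where the unlabelled median was 0. All the equal ratios thus fell on the shorter introns.

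**Figure D4:**
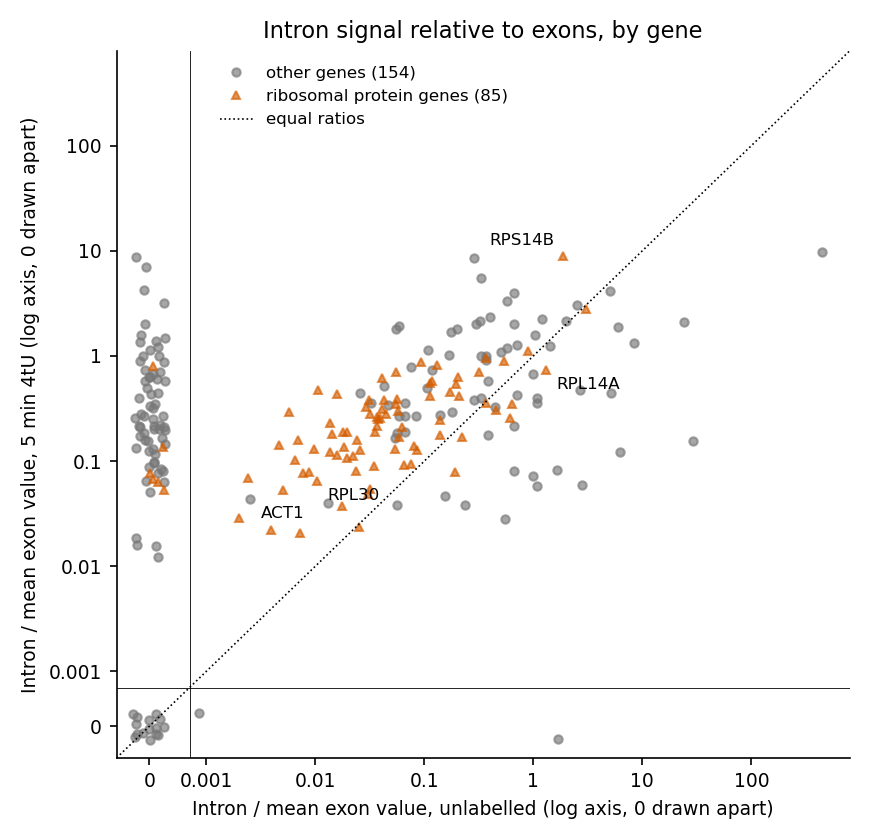
Ratio of the intron value to the mean exon value at 5 min (y axis, log) against the same ratio without label (x axis, log) for 239 genes, with values of 0 drawn apart left of and below the thin lines, RP genes as orange triangles, other genes as grey circles and the dotted line marking equal ratios. Of these, 187 genes lie above the line, 87 have a ratio of 0 without label, and RPS14B, ACT1 and RPL30 are above it while RPL14A is below.

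Label enters at U and longer transcripts hold more of it, so fold changes were set against both, as a description across genes that share their libraries. Over 5866 protein-coding genes the median log2 fold change was 0.14 in the lowest of 5 equal bins of U content (bin median 23.1%) and −0.34 in the highest (bin median 31.4%), with a Spearman correlation of −0.12. By coding length, the shortest of 5 bins had a median of 0.11 and the longest −0.37, with a Spearman correlation of −0.19. The 24 protein-coding genes that fell and have a gene model had a median U content of 28.7% and length of 1592 bases, beside 27.4% and 1214 bases over all genes.

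The labels name the mating type MATa, and its genes were detected in both groups. The receptor gene STE2 had 159, 171 and 190.2 CPM at 5 min and 360.2 and 129.2 CPM without label, and STE6 had 111, 123.5 and 114 CPM at 5 min against 111 and 189 CPM. Of 7 MATa markers none passed the test. Of the MATalpha markers MF(ALPHA)1 reached at most 0.164 CPM at 5 min and 2.37 CPM without label, and STE3 had 3.75 to 14 CPM at 5 min and 4.28 and 12.8 CPM without label. MF(ALPHA)2 reached 2.65 CPM at 5 min and 2.37 CPM without label. SAG1, the remaining MATalpha marker, was at 12.5 to 14.6 CPM at 5 min and 41.8 and 56.5 CPM without label, so not all of these defining genes were near 0. URA3 was present, at 49, 56.7 and 32.8 CPM at 5 min and 43.1 and 73.3 CPM without label.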

How the data were processed

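Per the file headers, the authors deposited whole-number read counts per annotated feature and, per intron gene and group, 1 value per segment. The deposited segment values are headed FPKM but their scale is unclear, so they were treated as a score, ratios were formed within a gene, and nothing was tested. The table's 14 RPKM columns were not used. The submitters' processing notes name STAR 2.4.2a and the R64 build. Neither the counting tool nor the strand setting nor the handling of random adapter bases is given in the sources used here. Libraries were randomly primed and amplified over 16 to 20 cycles, per the labels.

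Of 12549 rows, 100 full repeats were dropped, which left 12449 features. Of 6688 protein-coding IDs, 6005 matched the RefSeq R64 annotation. edgeR 4.0.16 (R 4.3.3) was run on the counts of all 14 libraries in 5 groups: filterByExpr with minimum count 10, TMM, quasi-likelihood F test, Benjamini-Hochberg over 11688 features, threshold 0.05. The procedure was run on simulated counts with a common dispersion and no differences between libraries of a group beyond depth. That run therefore does not cover the spread between these libraries. DESeq2 1.42.0 was an alternative. Features were named by a rule: among those past the threshold with mean CPM of at least 5 and no overlap, the largest changes; the most abundant members of each list; and a set list. Members and lists were chosen with earlier results of these data known. TMM sets changes relative to the bulk of features. Copies of near-identical genes are uncertain.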

Additional observations from a re-analysis of the deposited data

How the results depend on the processing

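The count of features past the threshold moved with the libraries in the fit, the test and the scaling. It was 40 (7 higher, 33 lower) over all libraries, 1843 (869 and 974) without total RNA, and 0 with the 5 libraries alone. It was 1298 (545 and 753) with DESeq2's Wald test, 180 (43 and 137) with rRNA features removed and 3 (1 and 2) with repeated rows kept. Leaving out single labelled or unlabelled libraries gave 0 to 482 (higher 0 to 110, lower 0 to 445). Total RNA replicates left out in turn, an alternative added after seeing the data, gave 10 to 1880 (higher 2 to 826, lower 8 to 1054). Scaled by library size only, 5281 passed (5275 higher, 6 lower), with the median of all features at 2.13 on the log2 scale. DESeq2's size factors in edgeR, no filter, and a bound of 1 on the log2 fold change stayed within 1.5 times the count. All 40 calls held with DESeq2, without rRNA and without total RNA, none with the 5 libraries alone, and none without 5 min library 2. Only 7 of the 40 held when scaled by library size only, 3 with repeated rows kept and 9 without total RNA replicate 1. Without 5 min library 1 it was 1, and without 5 min library 3 also 1. With DESeq2's size factors 36 held, and 29 with no filter. Per class, with counts outside rRNA as denominator, the differences were 9.84 percentage points for protein-coding features, 3.00 for unannotated transcripts and −6.20 for snoRNAs, against 29.1, 6.45 and 2.89 of all counts. Leaving out unlabelled 2 turned the log2 fold changes of 15S and 21S rRNA (1.28 and 1.33) and the tRNA median (1.94) above 0. The share of genes with a higher intron ratio ran from 80.3% to 84.6% over the other ways to form it, against 83.5%. The cause of these shifts was not tested. No paired analysis was possible because the unlabelled columns name no timecourse. Depth limits features near 0.194 CPM in the unlabelled group, for counting error only, and PCR copies are not independent molecules.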
